A study of Mus musculus with 6 samples.

Results

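Glycolysis and hypoxia-response genes were examined in primary aortic vascular smooth muscle cells (VSMCs) with and without Smyd2, which encodes a lysine methyltransferase. The 34 genes were chosen by symbol, as glycolytic enzymes and transporters, oxygen sensors and genes known to respond to low oxygen, and each was found in 1 row of the 18112 genes of the expression table. Poly-A RNA of 3 samples a genotype, Smyd2 fl/fl and Smyd2 SMC-/-, was sequenced, all of mouse strain C57BL/6. Cells of both groups were grown from the medial layer of aortas of adult mice that carried loxP sites around exon 2 of both Smyd2 alleles. Smyd2 SMC-/- mice also carried Cre under the Tagln (SM22α) promoter, and their Smyd2 fl/fl littermates did not, so that an effect of Cre itself cannot be told apart from the loss of Smyd2. The labels and the methods of the study differ on passage number, serum and RNA extraction kit. Neither states whether the replicates were separate animals or cultures, so p-values measure the spread between these samples, which may be technical.

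Glycolysis splits glucose into pyruvate through a chain of cytosolic enzymes, and lactate dehydrogenase converts pyruvate and lactate into each other. Several steps are carried out by isoforms from separate genes, whose proteins differ in tissue distribution and kinetics. When oxygen is low, prolyl hydroxylases no longer mark HIF-α subunits for destruction, and the stabilised HIF complexes bind DNA and increase transcription of many glycolytic genes. HIF-1α itself is controlled mainly at the protein level, so its mRNA does not report its activity. Cultured VSMCs use glycolysis heavily, and a shift towards it accompanies their growth in response to growth factors.

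Levels are in FPKM, the fragments of a gene scaled by the length of its transcript and the size of the library, so that they can be compared between genes. The table gives no depth. The spacing of low values put it at roughly 18450000, 19500000 and 19250000 fragments for the Smyd2 fl/fl libraries, by replicate number, and 16700000, 19050000 and 18900000 for the Smyd2 SMC-/- libraries. Under the length settings tried, estimates ran from 16050000 to 23300000. At the depths kept, 1 fragment on a transcript of 2000 bases corresponds to between 0.0263 and 0.0307 FPKM. On the first principal component, which held 50.2% of the variance, each replicate 1 library lay apart from replicates 2 and 3 of its own group, and the genotypes interleaved: Smyd2 fl/fl lay at -58.63, 3.106 and 2.745 and Smyd2 SMC-/- at -25.44, 39.09 and 39.14. On the next component, with 33.1%, all Smyd2 fl/fl libraries lay above 0 and all Smyd2 SMC-/- libraries below it. Results are therefore also given for replicates 2 and 3 alone. Since these lay close together within each group on the first component, p-values from them rest on a small spread. In that comparison 17.2% of all genes tested were called lower and 11.9% higher.

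The cultures expressed some smooth muscle markers and lacked others. The summed level of the 8 smooth muscle markers was 1418, 1226 and 1242 FPKM for Smyd2 fl/fl, by replicate number, against 542, 719 and 692 FPKM for Smyd2 SMC-/-. Acta2, smooth muscle actin, made up 761, 682 and 683 FPKM of it in Smyd2 fl/fl against 201, 268 and 262 FPKM in Smyd2 SMC-/-, and fell (log2 fold change -1.55, limma adjusted p = 0.00803). Over the alternatives limma's adjusted p for Acta2 ran from 0.000241 to 0.0615. Cald1 was the other main part of the sum, at 443 ± 48 FPKM in Smyd2 fl/fl against 295 ± 18.5 FPKM in Smyd2 SMC-/- (SD, n = 3 each). Tagln, Cnn1, Smtn and Lmod1 overlapped, and in replicates 2 and 3 alone Lmod1 was higher (log2 fold change 0.83, limma adjusted p = 0.00335). Myh11, the smooth muscle myosin heavy chain that defines contractile cells, did not exceed 0.22 FPKM in any library, and Des did not exceed 0.22 FPKM either.

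Markers of other cell types also differed between libraries. The 7 endothelial markers summed to between 1.42 and 5.41 FPKM and the 6 leukocyte and macrophage markers to between 4.95 and 8.96 FPKM, of which Cd68 was the most abundant by its mean over the 6 libraries. Pecam1 was at 0.787 ± 0.197 FPKM in Smyd2 fl/fl against 0.10 ± 0.0917 FPKM in Smyd2 SMC-/- and Kdr at 0.63 ± 0.19 against 3.02 ± 2.10 FPKM (SD, n = 3 each), both without overlap. Cdh5, Tie1 and Ptprc did not exceed 0.02 FPKM. Csf1r was at 0.53 ± 0.05 FPKM in Smyd2 fl/fl against 1.41 ± 0.26 FPKM in Smyd2 SMC-/- without overlap (SD, n = 3 each; limma adjusted p = 0.102). Lyz2 overlapped, at 2.95 ± 1.66 against 1.37 ± 0.342 FPKM, and was called lower in replicates 2 and 3 (limma adjusted p = 0.00294). The 6 adventitial fibroblast markers summed to 184, 467 and 388 FPKM in Smyd2 fl/fl against 106, 566 and 566 FPKM in Smyd2 SMC-/-. Dcn was low in the replicate 1 library of both groups, and Dpt fell from 99.9 ± 40.1 to 1.70 ± 1.42 FPKM (SD, n = 3 each; limma adjusted p = 0.00417). Pdgfra was at 26.6 ± 7.42 FPKM in Smyd2 fl/fl against 7.92 ± 3.56 FPKM in Smyd2 SMC-/- without overlap (limma adjusted p = 0.0601). Of the 4 adipocyte markers, Fabp4 was at 119 FPKM in Smyd2 SMC-/- replicate 1 and between 3.12 and 6.19 FPKM in the other libraries, while Adipoq and Plin1 were near 0 throughout. The 6 cycling markers, led by Top2a, summed to 151, 100 and 114 FPKM in Smyd2 fl/fl against 100, 92.9 and 53.9 FPKM in Smyd2 SMC-/-. When replicate number was added as a block to the limma fit, Cald1 and Cdk1 fell and Col14a1 rose as well, the last from 19.3 ± 11.2 to 141 ± 68.2 FPKM. The part of cell state, other cells or growth in the results was not tested, and fewer cells of a type cannot be told apart from less RNA per cell in these bulk samples.

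Smyd2 itself was lower in every Smyd2 SMC-/- library. It was at 7.87, 3.10 and 3 FPKM in Smyd2 fl/fl against 1.67, 0.40 and 0.80 FPKM in Smyd2 SMC-/-, a log2 fold change of -1.48 (standard error 0.389). With limma its adjusted p was 0.105, or 0.0189 when replicate number entered as a block. The value covers the whole transcript and not exon 2 alone.

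Levels were compared between genotypes with limma on log2(FPKM + 1) for the 12565 genes that averaged 0.5 FPKM or more, and p-values were adjusted over all of them. Fold changes on this scale understate the change of genes with low FPKM. Of the 34 genes 32 were tested, and Slc2a3 and Car9 were below the minimum. At an adjusted p under 0.05, limma called 0 of the 32 lower and 0 higher in Smyd2 SMC-/-, where 1.21% of all genes tested were called lower and 1.23% higher. Before adjustment, at p under 0.05 from limma, 10 of the 32 were lower and 2 higher, against 1405 lower and 1151 higher among all 12565.

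With the replicate number as a block, 5 of the 32 genes fell and 3 rose, against 5.72% of all genes tested that were called lower and 4.72% higher. Those that fell were Pfkl, Pfkp, Pgk1, Pgam1 and Eno1, all enzymes of the glycolytic chain, and those that rose were Eno2, Ldhb and Hif1a. The replicate 1 libraries of both groups deviated alike (correlation 0.615), which the block takes out. Numbers 2 and 3 were not clearly set apart. Smyd2 fl/fl 2 correlated at 0.46 with Smyd2 SMC-/- 2 and at 0.461 with Smyd2 SMC-/- 3. In replicates 2 and 3 alone 12 of the 32 were called lower and 6 higher, against 17.2% and 11.9% of all genes tested. Rescaling each library to TPM, so that its values sum to a fixed total, raised the median over all genes by 0.113, from -0.018 to 0.0951, and moved the calls over all genes from 152 lower and 154 higher to 99 lower and 247 higher. After that rescaling 0 of the 32 were called lower and 1, Ldhb, higher. With the block and the rescaling together 2 were lower, Pfkl and Pgk1, and 3 higher (6.25% and 9.38%), against 3.78% and 8.07% of all genes tested.

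**Figure D1:**
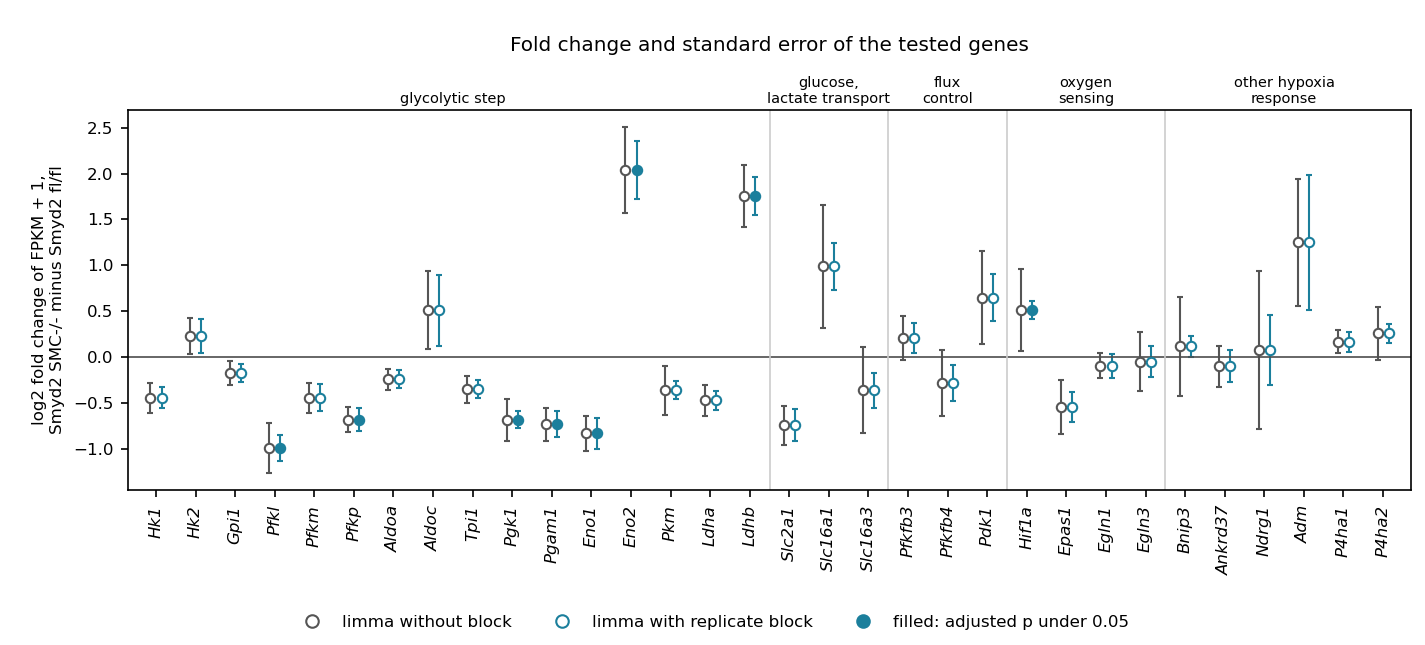
Log2 fold change of FPKM + 1, Smyd2 SMC-/- minus Smyd2 fl/fl, for the 32 tested genes by role, with bars for 1 standard error from limma without a block (grey) and with the replicate block (blue); filled points have an adjusted p under 0.05. Points on the left lie mostly below 0, with Hk2, Aldoc, Eno2 and Ldhb above it, and the 8 filled points are all from the fit with the block.

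The median log2 fold change of the 32 genes was -0.14, beside -0.018 for all genes tested, but -0.035 beside -0.0768 without Smyd2 SMC-/- replicate 1, where the order turned. Grouped by role after their values were seen, the 16 genes of glycolytic steps had a median of -0.40 and the 16 others 0.098, or -0.386 and -0.0694 without Smyd2 fl/fl replicate 1. The medians were -0.34 and -0.0647 without Smyd2 SMC-/- replicate 2, and -0.332 and -0.111 without Smyd2 SMC-/- replicate 3. Without overlap between genotypes, 11 of the 32 genes were lower in Smyd2 SMC-/- and 2 higher, Eno2 and Ldhb, where 15.0% and 13.1% of all genes tested did so. Of those 11 genes, 10 belonged to the 16 of glycolytic steps and the other was Slc2a1. After rescaling to TPM 7 of the 32 genes were lower without overlap, all among those 11 (Hk1, Aldoa, Tpi1 and Ldha then overlapped), and 3 higher, against 9.62% and 18.6% of all genes tested. The difference within a replicate number had the same sign in all 3 numbers for 15 genes that were lower and 6 that were higher, against 29.3% and 25.8% of all genes tested. These counts of overlap and direction were also added after values were seen. Whether the genes of glycolytic steps differ from other genes as a group was not tested.

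**Figure D2:**
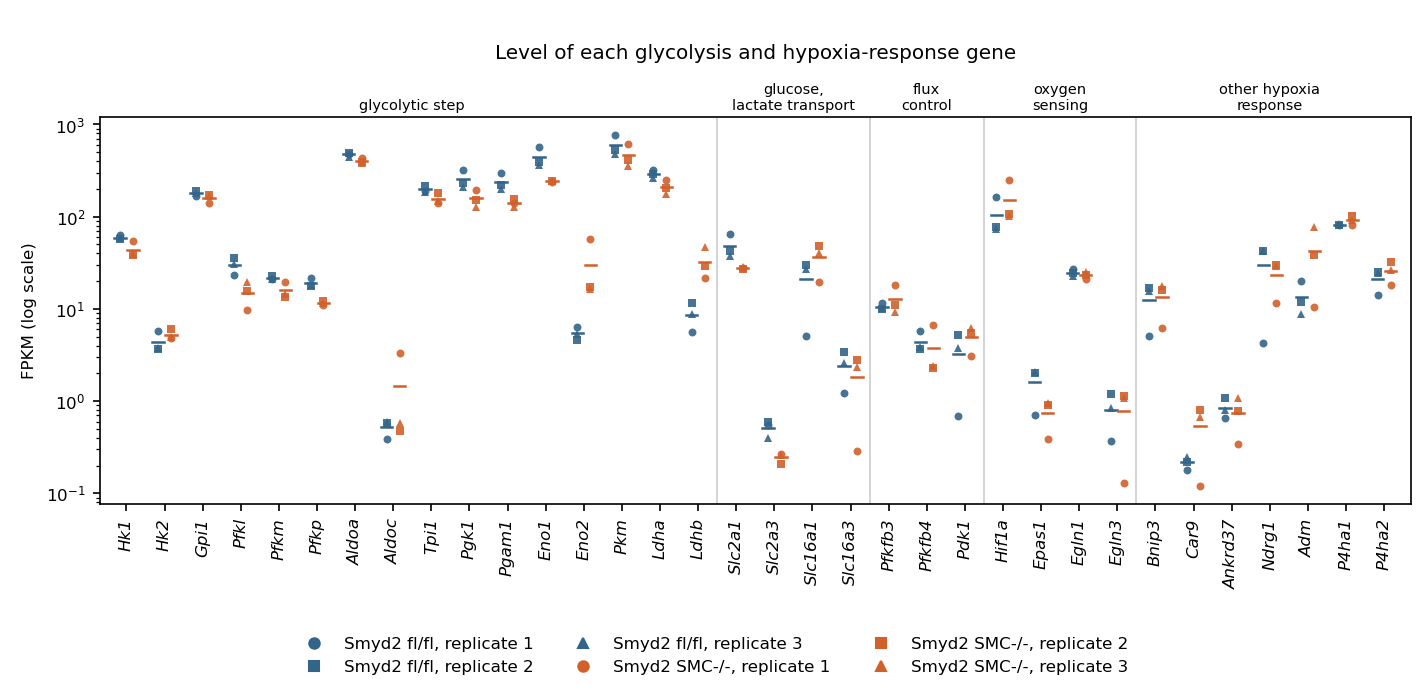
FPKM on a log axis of the 34 genes by role in each of the 6 libraries, with Smyd2 fl/fl in blue and Smyd2 SMC-/- in orange, a marker shape for each replicate number and a line at each group's mean. Levels span from 0.12 FPKM for Car9 to 772 FPKM for Pkm, and circles (replicate 1) often lie apart from the other markers of their group.

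Promoter sequences are printed for Eno1 with Eno2 and Ldha with Ldhb, the isoform pairs whose ratios, given below, differed most between genotypes, and for Pfkl and Pgk1, which fell with the block both before and after rescaling to TPM. These genes were picked from the results. The windows are RefSeq sequences of 300 bases on GRCm38.p6, and for genes with several windows the outermost upstream one was taken. They lie at chr4:150236458-150236757 (+ strand) for Eno1, chr6:124769624-124769923 (- strand) for Eno2, chr7:46845554-46845853 (+ strand) for Ldha, chr6:142507908-142508207 (- strand) for Ldhb, chr10:78009758-78010057 (- strand) for Pfkl and chrX:106186850-106187149 (+ strand) for Pgk1, and each is printed 5′ to 3′ in the direction of the gene. Capitals mark the core of the hypoxia-response element, ACGTG or GCGTG, on either strand.
Eno1: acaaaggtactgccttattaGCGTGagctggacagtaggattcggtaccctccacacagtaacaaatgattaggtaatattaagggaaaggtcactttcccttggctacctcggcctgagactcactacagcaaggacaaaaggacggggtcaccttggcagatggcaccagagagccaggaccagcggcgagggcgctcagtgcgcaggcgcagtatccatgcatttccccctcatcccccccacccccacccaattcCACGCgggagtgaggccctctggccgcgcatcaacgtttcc
Eno2: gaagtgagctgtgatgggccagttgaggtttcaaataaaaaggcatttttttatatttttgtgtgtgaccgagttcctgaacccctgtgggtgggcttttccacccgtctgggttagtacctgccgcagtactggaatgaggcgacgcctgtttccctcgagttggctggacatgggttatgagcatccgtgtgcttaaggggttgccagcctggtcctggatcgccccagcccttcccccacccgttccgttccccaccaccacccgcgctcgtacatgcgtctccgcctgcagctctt
Ldha: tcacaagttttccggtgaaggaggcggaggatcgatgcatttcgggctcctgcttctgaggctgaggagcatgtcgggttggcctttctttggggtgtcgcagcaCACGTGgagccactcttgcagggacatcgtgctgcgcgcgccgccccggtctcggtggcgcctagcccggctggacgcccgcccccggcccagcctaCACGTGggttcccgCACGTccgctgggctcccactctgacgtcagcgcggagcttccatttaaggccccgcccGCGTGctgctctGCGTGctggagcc
Ldhb: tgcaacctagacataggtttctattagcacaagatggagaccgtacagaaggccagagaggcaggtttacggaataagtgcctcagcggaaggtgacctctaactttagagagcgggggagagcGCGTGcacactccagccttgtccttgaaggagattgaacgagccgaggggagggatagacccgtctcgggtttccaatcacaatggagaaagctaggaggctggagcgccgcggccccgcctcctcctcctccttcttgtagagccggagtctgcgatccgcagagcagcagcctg
Pfkl: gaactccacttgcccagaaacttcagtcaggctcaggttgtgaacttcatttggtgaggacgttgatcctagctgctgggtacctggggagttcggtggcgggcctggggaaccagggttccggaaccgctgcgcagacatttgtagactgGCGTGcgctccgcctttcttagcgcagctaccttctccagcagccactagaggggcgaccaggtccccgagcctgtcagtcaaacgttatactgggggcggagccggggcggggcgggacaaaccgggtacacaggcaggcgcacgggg
Pgk1: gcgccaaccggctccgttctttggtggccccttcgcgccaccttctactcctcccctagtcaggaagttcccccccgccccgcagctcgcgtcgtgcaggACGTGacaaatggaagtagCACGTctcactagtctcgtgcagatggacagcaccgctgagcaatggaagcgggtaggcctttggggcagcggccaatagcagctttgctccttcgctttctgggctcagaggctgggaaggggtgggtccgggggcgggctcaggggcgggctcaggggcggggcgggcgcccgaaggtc
The core was present in 5 stretches in the Ldha window, 2 each in Eno1 and Pgk1, 1 each in Ldhb and Pfkl, and 0 in Eno2. Overlapping matches were counted as 1 stretch. In Ldha, 2 of the stretches are CACGTG, which is also the E-box of other factors.

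A window was found for 31 of the 34 genes, all but Slc2a3, Epas1 and Ndrg1. The core occurred in at least 1 window of 28 of the 31 genes (90.3%) and of 8140 of the 13325 genes of the expression table with a window (61.1%), or in 36 of 44 windows (81.8%) against 14380 of all 32851 windows of this length (43.8%). Many of the 34 genes are listed because they are known HIF targets, and base composition was not matched. The CArG box, the binding sequence of serum response factor, occurred in a window of 1 of the 31 genes, Ldha, and of 1.63% of genes of the table. A match is a description of the sequence, and binding was not measured here.

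Glucose enters through facilitative transporters and is phosphorylated by hexokinase. Slc2a1, which encodes GLUT1, the main transporter of most cultured cells, was at 65.1, 42.5 and 37.5 FPKM in Smyd2 fl/fl against 27.8, 27.3 and 28.2 FPKM in Smyd2 SMC-/-. The groups did not overlap, and the adjusted p was 0.123 (limma), or 0.0105 in replicates 2 and 3. Slc2a3, which encodes GLUT3, was not tested and did not exceed 0.60 FPKM. Hk1, the broadly expressed hexokinase, was at 59.5 ± 3.31 and 44.1 ± 8.90 FPKM (SD, n = 3 each), again without overlap, and Hk2, the inducible form, at 4.41 ± 1.13 and 5.27 ± 0.665 FPKM with overlap. In replicates 2 and 3 alone limma called Hk1 lower (adjusted p = 0.00567) and Hk2 higher (adjusted p = 0.0461). Gpi1, which turns glucose phosphate into fructose phosphate, was at 180 ± 12.5 and 160 ± 17.6 FPKM and overlapped.

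Phosphofructokinase commits sugar to glycolysis, and its liver-type and platelet-type subunit genes fell in the fit with the block. Pfkl was at 23.5, 35.3 and 31.1 FPKM in Smyd2 fl/fl against 9.74, 15.5 and 19.4 FPKM in Smyd2 SMC-/-. Pfkl differed by a log2 fold change of -0.99 (standard error 0.270), with limma's adjusted p at 0.113 without the block, 0.0258 with it and 0.00259 in replicates 2 and 3. Pfkp was at 21.8, 17.7 and 18.1 FPKM in Smyd2 fl/fl against 11.1, 12.2 and 11.5 FPKM in Smyd2 SMC-/-. Neither gene overlapped between genotypes. The log2 fold change of Pfkp was -0.68 (standard error 0.134), with limma's adjusted p at 0.0580 without the block, 0.0392 with it and 0.00649 in replicates 2 and 3; with the block after rescaling to TPM it was 0.0569. Pfkm, the muscle-type subunit, was at 21.6 ± 0.853 and 15.9 ± 3.24 FPKM without overlap (limma adjusted p = 0.203, and 0.00527 in replicates 2 and 3). The 3 subunits were present at similar levels, between 9.74 and 35.3 FPKM in every library.

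Aldolase and triose phosphate isomerase follow. Aldoa, the main aldolase of muscle, was at 482, 488 and 448 FPKM in Smyd2 fl/fl against 429, 390 and 381 FPKM in Smyd2 SMC-/-. The groups did not overlap, but the difference was small, with a log2 fold change of -0.24 (standard error 0.117; limma adjusted p = 0.305). Aldoc, the brain form, was at 3.36 FPKM in Smyd2 SMC-/- replicate 1 and did not exceed 0.59 FPKM elsewhere. Tpi1 was at 198 ± 16.8 and 156 ± 21.3 FPKM (SD, n = 3 each) without overlap.

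The steps down to phosphoenolpyruvate run through Pgk1, which makes ATP, Pgam1 and enolase, and all 3 of Pgk1, Pgam1 and Eno1 fell in the fit with the block. Pgk1 was at 325, 230 and 211 FPKM in Smyd2 fl/fl against 195, 152 and 127 FPKM in Smyd2 SMC-/-. Within the replicate numbers it differed by -0.73, -0.60 and -0.72 on the log2 scale, although levels in both groups were highest in replicate 1. Its log2 fold change was -0.68 (standard error 0.228), with limma's adjusted p at 0.166 without the block, 0.0258 with it and 0.00873 in replicates 2 and 3. Pgam1 was at 296, 220 and 198 FPKM in Smyd2 fl/fl against 140, 156 and 127 FPKM in Smyd2 SMC-/-. The log2 fold change of Pgam1 was -0.73 (standard error 0.182), with limma's adjusted p at 0.0901, 0.0427 with the block and 0.0192 in replicates 2 and 3. With the block after rescaling to TPM it was 0.0362 for Pgk1 and 0.0665 for Pgam1.

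The enolase genes Eno1 and Eno2 showed opposite differences. Their promoters printed above hold 2 stretches of the core for Eno1 and 0 for Eno2. The other listed genes with a window but no core, Gpi1 and Tpi1, were lower within each replicate number. Whether the number of cores is related to direction, here or for Ldha and Ldhb below, was not tested. Eno1, the broadly expressed form, was at 568, 394 and 362 FPKM in Smyd2 fl/fl against 237, 246 and 247 FPKM in Smyd2 SMC-/-. The Smyd2 SMC-/- libraries were close to each other, while the Smyd2 fl/fl libraries spread widely and all lay above them. Its log2 fold change was -0.83 (standard error 0.188), with limma's adjusted p at 0.0756 without the block, 0.0447 with it, 0.0635 with the block after rescaling to TPM and 0.0078 in replicates 2 and 3. Eno2, the neuronal form, was at 6.40, 4.57 and 5.37 FPKM in Smyd2 fl/fl against 57.3, 17.1 and 16.4 FPKM in Smyd2 SMC-/-. All Smyd2 SMC-/- libraries were above all Smyd2 fl/fl libraries, and replicate 1 was the highest by far. The log2 fold change of Eno2 was 2.04 (standard error 0.468), with limma's adjusted p at 0.0767 without the block, 0.0319 with it and 0.000125 in replicates 2 and 3, where the log2 fold change was 1.58. Eno3, the muscle form, is on the list of further glycolysis genes and was named after its values were seen. It was at 29, 9 and 7.31 FPKM in Smyd2 fl/fl against 36.5, 12.5 and 12.3 FPKM in Smyd2 SMC-/-, higher within each replicate number although the groups overlapped. Its limma adjusted p was 0.722 without the block, 0.0617 with it, 0.0429 with the block after rescaling to TPM and 0.0145 in replicates 2 and 3. The log2 fold change of Eno3 was 0.48, or -0.014 without Smyd2 SMC-/- replicate 1.

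Pyruvate kinase and lactate dehydrogenase close the chain. Pkm, with the highest mean of the 34 genes over the 6 libraries, was at 772, 533 and 476 FPKM in Smyd2 fl/fl against 621, 414 and 359 FPKM in Smyd2 SMC-/-. The groups overlapped, with both replicate 1 libraries high, and each Smyd2 SMC-/- library lay below the Smyd2 fl/fl library of its number, by -0.31, -0.36 and -0.40 on the log2 scale. The log2 fold change of Pkm was -0.36 (standard error 0.268; limma adjusted p = 0.520), with a range from -0.59 to -0.16 on leaving out 1 library. Its splice forms PKM1 and PKM2 share 1 gene value here and were not told apart. Ldha, which favours the making of lactate, was at 323, 288 and 264 FPKM in Smyd2 fl/fl against 250, 207 and 177 FPKM in Smyd2 SMC-/-, without overlap and with a log2 fold change of -0.47 (standard error 0.166; limma adjusted p = 0.187). In replicates 2 and 3 its adjusted p was 0.0208. Ldhb, which favours the use of lactate, was at 5.69, 11.6 and 8.78 FPKM in Smyd2 fl/fl against 21.4, 29.4 and 46.5 FPKM in Smyd2 SMC-/-. Of the promoters printed above, that of Ldha holds 5 stretches of the core and that of Ldhb 1. Ldhb rose in the fit with the block, with a log2 fold change of 1.76 (standard error 0.338) and limma's adjusted p at 0.0546 without the block, 0.0189 with it and 0.00462 in replicates 2 and 3.

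The 16 genes of glycolytic steps together summed to 3272, 2715 and 2474 FPKM in Smyd2 fl/fl against 2335, 2051 and 1886 FPKM in Smyd2 SMC-/-. The groups did not overlap in FPKM, and the sum of smooth muscle markers given above, mainly Acta2 and Cald1, was also lower in all 3 Smyd2 SMC-/- libraries. As a share of all FPKM in a library, where library scaling cancels, the sums were 0.790%, 0.601% and 0.586% in Smyd2 fl/fl against 0.596%, 0.512% and 0.486% in Smyd2 SMC-/-, and here Smyd2 SMC-/- replicate 1 lay above Smyd2 fl/fl replicate 3. Of the 16 genes, 12 were lower and 4 higher by log2 fold change, with the same numbers after rescaling to TPM and after median-ratio scaling. Among all 12565 genes tested 6533 were lower and 6032 higher. These counts were 5006 and 7559 after rescaling to TPM, and 6201 and 6364 after median-ratio scaling. Several of these genes, among them Eno1, Pgk1, Ldha, Aldoa and Pgam1, have pseudogenes or close relatives in the mouse genome whose reads may be shared with them, so their levels carry that uncertainty.

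**Figure D3:**
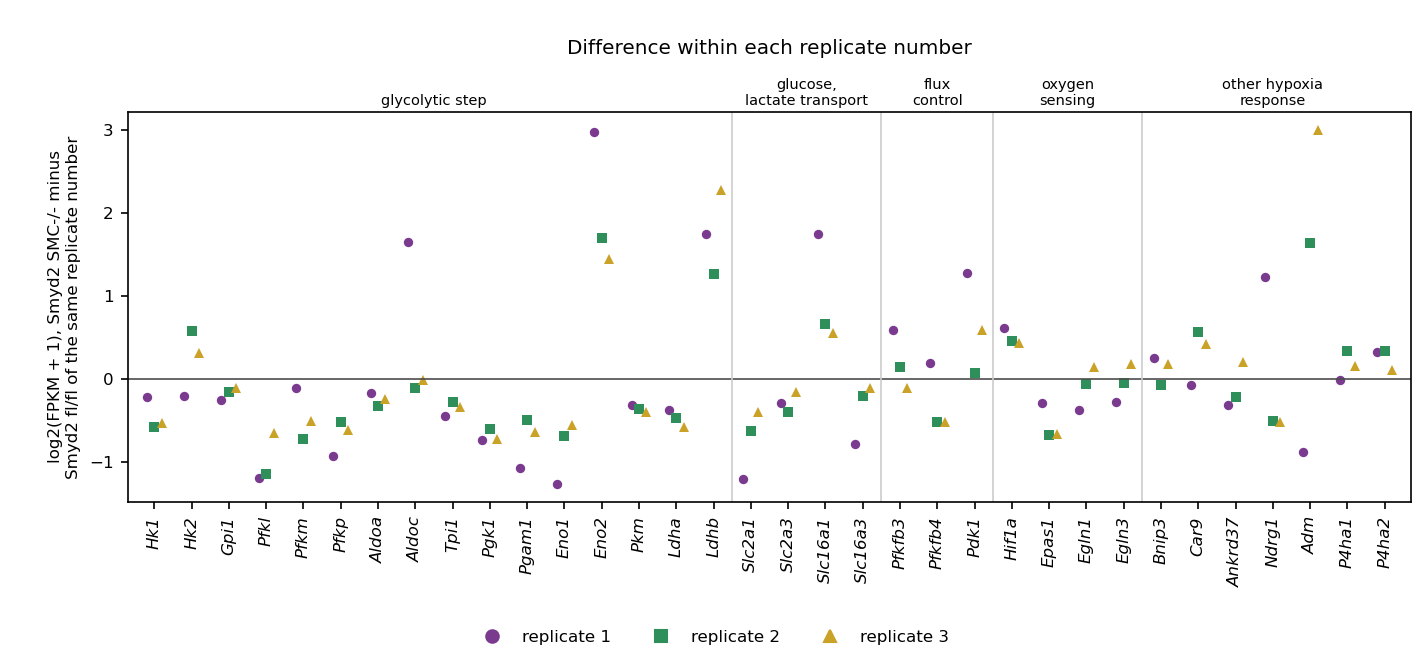
Difference in log2(FPKM + 1) between the Smyd2 SMC-/- and the Smyd2 fl/fl library of the same replicate number, for the 34 genes by role. For 12 of the 16 genes of glycolytic steps all 3 differences lie below 0, while those of Eno2 and Ldhb lie above it and those of Adm and Ndrg1 differ in sign between replicate 1 and the other numbers.

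Ratios between genes of the same step were compared within a library, where scaling cancels except for the pseudocount. Of 12 such pairs 7 had groups that did not overlap in the log2 ratio of FPKM + 1. Each had p = 0.1 in a two-sided exact permutation test, the smallest p that 3 against 3 allow. The adjusted p from this test was 0.171 over the 12 pairs. In shares of summed FPKM, where no pseudocount enters, the groups overlapped for Slc2a1 with Slc2a3, Aldoa with Aldoc and Hk1 with Hk2. How often other gene pairs lie without overlap was not counted. Among single genes tested, 15.0% were lower and 13.1% higher without overlap. The largest difference was in enolase, where the log2 ratio of Eno1 to Eno2 was 6.08 ± 0.223 in Smyd2 fl/fl against 3.21 ± 1.02 in Smyd2 SMC-/- (SD, n = 3 each). Eno2 made up 1.11%, 1.15% and 1.46% of the summed FPKM of Eno1 and Eno2 in Smyd2 fl/fl against 19.5%, 6.51% and 6.24% in Smyd2 SMC-/-. The log2 ratio of Ldha to Ldhb was 4.96 ± 0.568 and 2.72 ± 0.789. Ldhb made up 1.73%, 3.88% and 3.22% of the pair in Smyd2 fl/fl against 7.89%, 12.4% and 20.8% in Smyd2 SMC-/-, and Ldha was the larger part in all libraries.

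**Figure D4:**
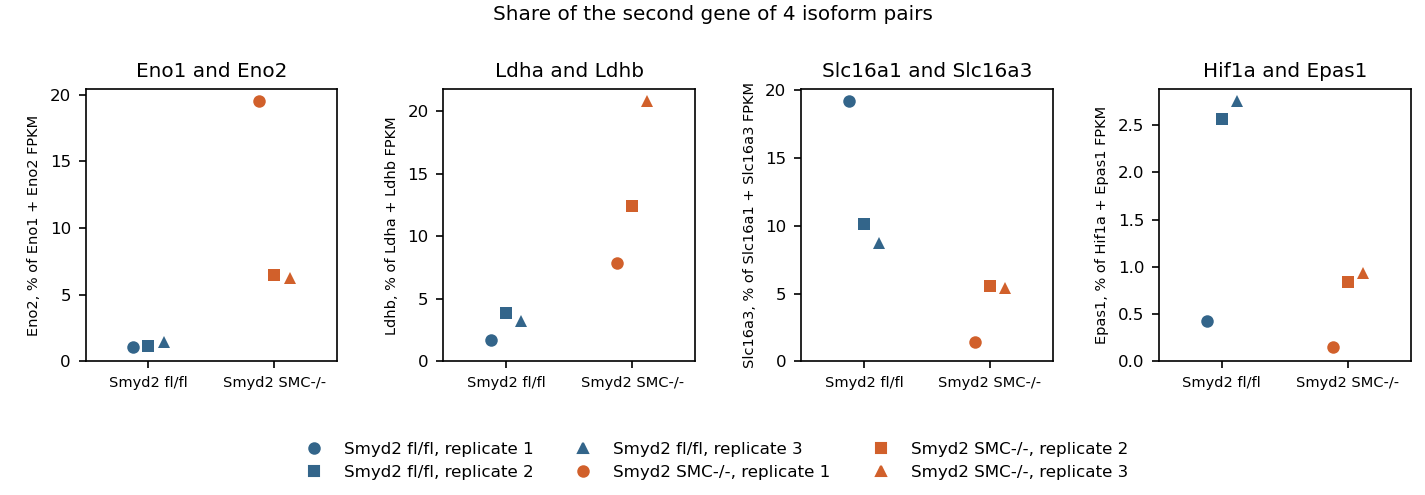
Share of the second gene in the summed FPKM of the 4 isoform pairs with the largest differences in log2 ratio, as a percentage in each library by genotype. Shares of Eno2 and Ldhb are higher in all 3 Smyd2 SMC-/- libraries, with replicate 1 at 19.5% for Eno2 and at 7.89% for Ldhb, and Epas1 is at most 2.75% of its pair in the panel on the right.

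Monocarboxylate transporters carry lactate across the membrane. Slc16a1, which encodes MCT1, was at 5.14, 30.2 and 27.3 FPKM in Smyd2 fl/fl against 19.7, 48.3 and 40.7 FPKM in Smyd2 SMC-/-, with replicate 1 low in both groups. Its log2 fold change was 0.99 (standard error 0.671; limma adjusted p = 0.476), 0.23 without Smyd2 fl/fl replicate 1, and 0.61 in replicates 2 and 3, where the adjusted p was 0.0084. Slc16a3, which encodes the lactate exporter MCT4, was at 1.22, 3.39 and 2.61 FPKM in Smyd2 fl/fl against 0.29, 2.83 and 2.34 FPKM in Smyd2 SMC-/-, with a log2 fold change of -0.36 (standard error 0.470; limma adjusted p = 0.729). Without Smyd2 SMC-/- replicate 1 the log2 fold change of Slc16a3 was 0.13. The log2 ratio of Slc16a1 to Slc16a3 was 2.42 ± 0.830 in Smyd2 fl/fl against 3.78 ± 0.198 in Smyd2 SMC-/-, without overlap. That difference of 1.35 was 0.88 without Smyd2 fl/fl replicate 1 and 0.76 in replicates 2 and 3.

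Among regulators of flux, Pfkfb3 and Pfkfb4 make and remove a fructose bisphosphate that is an activator of phosphofructokinase, and Pdk1 restrains the entry of pyruvate into mitochondria. Pfkfb3 was between 9.38 and 18.2 FPKM over the 6 libraries, Pfkfb4 between 2.29 and 6.71 FPKM and Pdk1 between 0.69 and 6.21 FPKM. The groups overlapped for each, and none was called in all libraries with or without the block, while Pfkfb4 was called lower in replicates 2 and 3 (log2 fold change -0.52, limma adjusted p = 0.0245).

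The oxygen-sensing genes were measured at very different levels. Hif1a, which encodes the broadly expressed HIF-1α, was at 162, 76.9 and 73.9 FPKM in Smyd2 fl/fl against 250, 106 and 101 FPKM in Smyd2 SMC-/-. The groups overlapped, with replicate 1 highest in each, and every Smyd2 SMC-/- library lay above the Smyd2 fl/fl library of its number. For Hif1a the log2 fold change was 0.51 (standard error 0.446), and limma gave an adjusted p of 0.592 without the block, 0.0418 with it and 0.0154 in replicates 2 and 3. Without Smyd2 fl/fl replicate 1 the value was 0.87, and without Smyd2 SMC-/- replicate 1 it was 0.085. Epas1, which encodes HIF-2α, was at 0.70, 2.02 and 2.09 FPKM in Smyd2 fl/fl against 0.39, 0.90 and 0.95 FPKM in Smyd2 SMC-/-, with a log2 fold change of -0.54 (standard error 0.293; limma adjusted p = 0.360), or -0.82 without Smyd2 fl/fl replicate 1, and in replicates 2 and 3 an adjusted p of 0.0108. The log2 ratio of Hif1a to Epas1 was 5.29 ± 1.12 in Smyd2 fl/fl against 6.34 ± 1.00 in Smyd2 SMC-/- (SD, n = 3 each) and overlapped (exact permutation p = 0.3, adjusted p = 0.450), and the difference of 1.05 ran from 0.47 to 1.69 on leaving out 1 library. Within the replicate numbers it was 0.91, 1.13 and 1.11.

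The prolyl hydroxylases that act on HIF-α did not separate the genotypes. Egln1, which encodes PHD2, was at 27.3, 24.6 and 22.5 FPKM in Smyd2 fl/fl against 20.9, 23.6 and 25.1 FPKM in Smyd2 SMC-/-, with a log2 fold change of -0.093 (standard error 0.134; limma adjusted p = 0.764). Egln3, which encodes PHD3 and is itself induced by low oxygen in many cells, was at 0.37, 1.21 and 0.85 FPKM in Smyd2 fl/fl against 0.13, 1.15 and 1.09 FPKM in Smyd2 SMC-/-, with a log2 fold change of -0.047 (standard error 0.322; limma adjusted p = 0.957). Both genes overlapped and had signs that differed between replicate numbers.

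The other hypoxia-response genes overlapped between genotypes for all 7 listed, and none of the 6 tested was called with or without the block. Adm, which encodes the vasodilator peptide adrenomedullin, was at 19.9, 11.8 and 8.76 FPKM in Smyd2 fl/fl against 10.4, 38.6 and 77.1 FPKM in Smyd2 SMC-/-, lower than its counterpart in replicate 1 and higher in replicates 2 and 3. Ndrg1, a stress-responsive gene, was at 4.31, 42.4 and 42 FPKM in Smyd2 fl/fl against 11.5, 29.8 and 29.2 FPKM in Smyd2 SMC-/-, with the opposite signs. Adm had a log2 fold change of 1.25, from 0.62 to 2.02 on leaving out 1 library. In replicates 2 and 3 alone the log2 fold change was 2.32 for Adm and -0.50 for Ndrg1, with limma's adjusted p at 0.0202 and 0.00727. Bnip3, which encodes a mitochondrial protein of mitophagy, was at 5.05 and 6.19 FPKM in the replicate 1 libraries and between 15.7 and 17.9 FPKM in the others. P4ha1 and P4ha2, the catalytic subunits of collagen prolyl hydroxylase, were at 82 ± 0.891 and 92.6 ± 10.7 FPKM and at 21.3 ± 6.11 and 25.7 ± 7.10 FPKM (SD, n = 3 each). P4ha1 was higher without overlap after rescaling to TPM. Ankrd37 did not exceed 1.08 FPKM, and Car9, carbonic anhydrase IX, did not exceed 0.81 FPKM.

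Other genes of the same pathways were counted from lists of 34 further glycolysis and 43 further hypoxia-response gene symbols, of which 23 and 37 were tested. Ldhc, Epo and Cxcr4 were not analysed here, and the table holds Ero1a under its older symbol Ero1l. limma called 0 of the 23 glycolysis genes, against 1.21% of all genes tested that were called lower and 1.23% higher. Before adjustment 2 lower and 3 higher had p under 0.05 from limma, against 1405 lower and 1151 higher among all 12565. With the block Gapdh fell and Adpgk rose, 1 gene (4.35%) in each direction, against 5.72% of all genes tested that fell and 4.72% that rose. With the block after rescaling to TPM 0 were called lower and 4 higher (17.4%), against 3.78% and 8.07% of all genes tested. Gapdh, the enzyme between triose phosphate isomerase and Pgk1, was at 2314, 1891 and 1706 FPKM in Smyd2 fl/fl against 1509, 1449 and 1182 FPKM in Smyd2 SMC-/-, above every one of the 34 genes in level. The log2 fold change of Gapdh was -0.51 (standard error 0.17), with limma's adjusted p at 0.167 without the block and 0.0481 with it. It was 0.0787 with the block after rescaling to TPM and 0.0621 in replicates 2 and 3. Adpgk, an ADP-dependent glucokinase, was at 12.3, 15.7 and 14.0 FPKM in Smyd2 fl/fl against 18.6, 26.5 and 25.6 FPKM in Smyd2 SMC-/-, a log2 fold change of 0.70 (standard error 0.178; limma adjusted p = 0.0945, and 0.0279 with the block).

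Among the 37 tested hypoxia-response genes, 2 rose and 0 fell without the block (5.41% and 0%, against 1.23% and 1.21% of all genes tested). Before adjustment 4 lower and 8 higher had p under 0.05 from limma, against 1405 lower and 1151 higher among all 12565. Plod2, a lysyl hydroxylase of collagen, was at 66.8, 78.2 and 78.1 FPKM in Smyd2 fl/fl against 220, 361 and 284 FPKM in Smyd2 SMC-/-. Plod2 rose by a log2 fold change of 1.91 (standard error 0.199; limma adjusted p = 0.00964). Stc2, which encodes the secreted glycoprotein stanniocalcin, was at 3.97, 6.05 and 6.28 FPKM in Smyd2 fl/fl against 17.7, 31.8 and 28.3 FPKM in Smyd2 SMC-/-, with a log2 fold change of 2.05 (standard error 0.263; limma adjusted p = 0.0177). All 3 Smyd2 SMC-/- libraries were above all Smyd2 fl/fl libraries for both genes. Over the alternatives the adjusted p ran from 8.5e-05 to 0.0632 for Plod2 and from 2.6e-05 to 0.106 for Stc2. The count of 2 went to 0 without Smyd2 fl/fl replicate 2, without Smyd2 fl/fl replicate 3 or without Smyd2 SMC-/- replicate 3, to 1 without Smyd2 SMC-/- replicate 2 and to 4 without Smyd2 SMC-/- replicate 1. In the same order, 0.143%, 0.127%, 0.143%, 0.215% and 2.97% of all genes tested were called higher. Where the count was 0, log2 fold changes were between 1.91 and 1.95 for Plod2 and between 1.96 and 2.14 for Stc2.

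With the block 4 of the 37 rose (10.8%), Plod2, Stc2, Lox and Hmox1, and 3 fell (8.11%), Mxi1, Fam162a and Tfrc, against 4.72% and 5.72% of all genes tested. Lox, the lysyl oxidase that cross-links collagen and elastin, was at 82.6, 327 and 315 FPKM in Smyd2 fl/fl against 347, 1075 and 984 FPKM in Smyd2 SMC-/-. Both replicate 1 libraries were low, and limma gave Lox an adjusted p of 0.199 without the block and 0.00662 with the block, for a log2 fold change of 1.80 (standard error 0.659), or 1.15 without Smyd2 fl/fl replicate 1. Hmox1, heme oxygenase, was at 154, 80.3 and 74.4 FPKM in Smyd2 fl/fl against 292, 174 and 167 FPKM in Smyd2 SMC-/-, a log2 fold change of 1.06 (standard error 0.341; limma adjusted p = 0.155, and 0.0134 with the block). Mxi1, which encodes an antagonist of MYC, was at 40.7, 26.6 and 26.9 FPKM in Smyd2 fl/fl against 18.1, 11.7 and 15.2 FPKM in Smyd2 SMC-/-. Mxi1 differed by a log2 fold change of -1.01 (standard error 0.228; limma adjusted p = 0.0757, and 0.0184 with the block). The groups did not overlap for Lox, Hmox1 and Mxi1, nor for Fam162a, which was at 65.1 ± 9.32 and 45.3 ± 3.67 FPKM (SD, n = 3 each) with a log2 fold change of -0.51 (standard error 0.147; limma adjusted p = 0.129, 0.0407 with the block and 0.056 with the block after rescaling to TPM). Tfrc, the transferrin receptor, was at 17.4, 6.40 and 7.80 FPKM in Smyd2 fl/fl against 11.1, 3.24 and 2.98 FPKM in Smyd2 SMC-/- and overlapped, with a log2 fold change of -0.85 (standard error 0.526; limma adjusted p = 0.431, and 0.0364 with the block), which ran from -1.37 to -0.45 on leaving out 1 library. Hypoxia-response genes differed in both directions, as did the fibroblast markers Dpt and Col14a1, and the activity of HIF was not measured here.

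**Figure D5:**
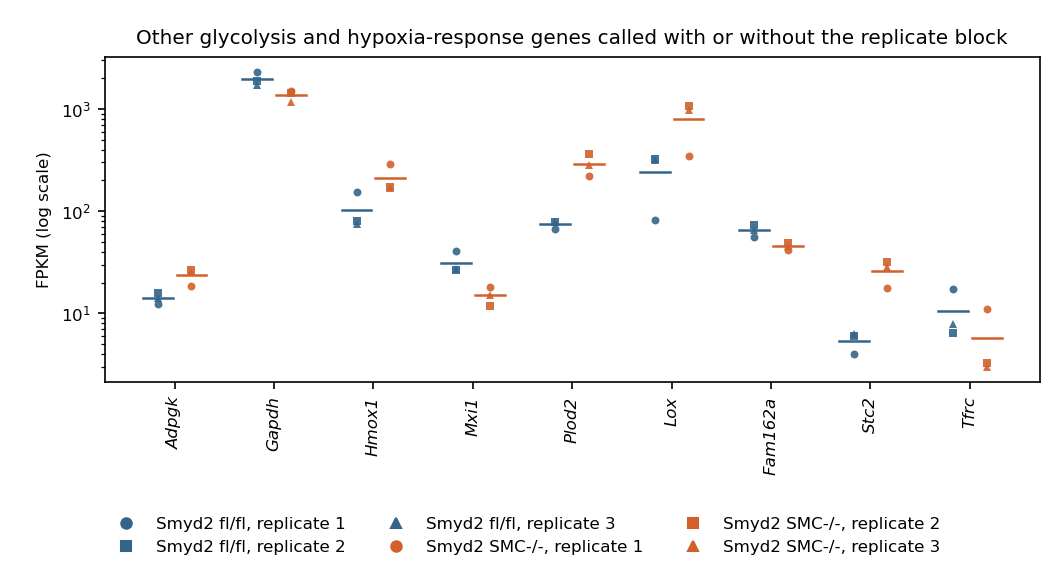
FPKM on a log axis of the 9 further glycolysis and hypoxia-response genes called with or without the block, in each of the 6 libraries, with a marker shape for each replicate number and a line at each group's mean. Plod2 and Stc2, called without the block, are higher in all 3 Smyd2 SMC-/- libraries, and the groups of Tfrc overlap.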

How the data were processed

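Poly-A RNA of 6 libraries was sequenced, and per the labels 3 were Smyd2 fl/fl and 3 Smyd2 SMC-/-. The authors filtered the reads, used HISAT, Bowtie2 and RSEM and deposited FPKM for 18112 genes. The submitters' processing notes name Bowtie2 and RSEM without versions, and the genome build is not given in the sources used here.

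Values were analysed as log2(FPKM + 1), and the 12565 genes that averaged 0.5 FPKM or more were compared with limma 3.58.1 (R 4.3.3, trend and robust settings) with Benjamini-Hochberg adjustment over all of them; the code was tested on simulated data. Ratios within a library were compared with exact permutation tests in Python 3.11.15 (pandas 2.3.3, numpy 2.4.6, scipy 1.17.1), and figures were drawn with matplotlib 3.10.9. The members and lists were chosen with earlier results of these data known. Every member is named; values and statistics are given for members called with or without the block, members of the 4 pairs with the largest ratio differences, the oxygen sensors, and the 3 members with the highest mean, and from the other lists for those called, at most 8 a list. The groups by role, the counts of non-overlap and of direction within replicate numbers, and the choice of promoters were added after values were seen, as were statistics of members outside this rule, such as Slc2a1, Hk1, Hk2, Pfkm, Pfkfb4, Adm and Ndrg1.

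The replicate numbers come from the labels. Same-numbered libraries deviated together, with correlations across genes of 0.615, 0.460 and 0.527 for replicates 1, 2 and 3, so a fit with the number as a block is given beside results whose call it changes. Crossing numbers 2 and 3 between the groups gave 0.461 for Smyd2 fl/fl 2 with Smyd2 SMC-/- 3 and 0.439 for Smyd2 fl/fl 3 with Smyd2 SMC-/- 2. For Smyd2 fl/fl 2 the crossed value was thus no lower than the matched 0.460, so these correlations do not set numbers 2 and 3 clearly apart. Crossing number 1 with either gave negative values.

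Depth was estimated as the number of fragments that brought most low values of genes with 1 listed transcript within 0.15 of a whole fragment, with transcript lengths from GENCODE M21. Between 60.8% and 66.4% came that close, where values spread evenly would give 30%. The estimates are approximate: after a first setting was seen, the window of values was widened and 13 offsets on the lengths were tried with 601 depths each, and the best match was kept. Promoter windows came from RefSeq on GRCm38.p6, matched by gene number.

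Alternatives were TPM rescaling, median-ratio scaling, a pseudocount of 0.1, no filter, the block with and without TPM rescaling, leaving out each library or both of replicate 1, and the cutoffs of the study's methods. Tests for read counts were not run, since the table holds FPKM.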

Additional observations from a re-analysis of the deposited data

How the results depend on the processing

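The 0 lower and 0 higher calls among the 32 genes were the same with median-ratio scaling, a pseudocount of 0.1, no filter and the cutoffs of the study's methods. With the replicate block they became 5 lower and 3 higher, with the block and TPM rescaling 2 and 3, and with TPM rescaling alone 1 was higher. Leaving out libraries gave 0 to 12 lower and 0 to 6 higher; the upper ends come from replicates 2 and 3 alone, and leaving out 1 library gave at most 1 lower and 2 higher, both without Smyd2 SMC-/- replicate 1. The count of genes that lay lower without overlap went from 11 to 7 with TPM rescaling, an alternative chosen after seeing the data. The median log2 fold change of the 32 genes was below 0 under all alternatives, at -0.14, -0.067 with TPM rescaling (where the median of all genes was 0.0951), -0.25 with a pseudocount of 0.1 and -0.22 to -0.035 on leaving out libraries.

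Of the other glycolysis genes 0 were called, 2 with the block, 4 with the block and TPM rescaling, and 0 to 7 on leaving out libraries. Of the other hypoxia-response genes 2 were called, 7 with the block, 6 with the block and TPM rescaling, 1 at the cutoffs of the study's methods (adjusted p under 0.01, fold change over 2), and 0 to 17 on leaving out libraries. Over all genes 152 were called lower and 154 higher, against 719 and 593 with the block 475 and 1014 with the block and TPM rescaling, 99 and 247 with TPM rescaling alone, 92 and 122 without the filter, 313 and 373 without Smyd2 SMC-/- replicate 1, 16 and 18 without Smyd2 fl/fl replicate 2, and 2156 and 1494 in replicates 2 and 3. Summed FPKM, which TPM rescaling sets equal, was 414171, 451539 and 421995 in Smyd2 fl/fl against 391649, 400315 and 388507 in Smyd2 SMC-/-. For the shifts in these counts of calls the cause was not tested.

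Directions reversed for a few genes, none of them called in all 6 libraries without the block, and Ndrg1 was called lower in replicates 2 and 3 (-0.50, limma adjusted p = 0.00727). Egln1 went to 0.027 with TPM rescaling, with and without the block. On leaving out libraries log2 fold changes ran from -0.048 to 0.40 for Pfkfb3, -0.057 to 0.79 for Aldoc, -0.66 to 0.13 for Slc16a3, -0.16 to 0.048 for Egln1, -0.23 to 0.26 for Egln3, -0.39 to 0.56 for Bnip3, -0.25 to 0.072 for Ankrd37, -0.93 to 0.58 for Ndrg1 and -0.014 to 1.05 for Eno3. The ratio of Slc2a1 to Slc2a3 reversed to 0.064 and that of Egln1 to Egln3 to 0.16 with a pseudocount of 0.1. On leaving out libraries ratios ran from -0.054 to 0.38 for Pfkm to Pfkp, -0.28 to 0.21 for Egln1 to Egln3 and -0.24 to 0.16 for P4ha1 to P4ha2. Among the 43 genes with fold changes, 476 values under alternatives kept direction and call, 58 gained a call, 7 lost one and 18 reversed.

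Depth limits levels near that of 1 fragment, 0.0263 to 0.0307 FPKM on 2000 bases, and 3 libraries a group limit the precision of all results.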
